A study of Homo sapiens with 30 samples.

Results

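The 10 genes described here encode secreted ligands of the transforming growth factor beta (TGF-beta) family: GDF15, BMP7, BMP2, BMP4, the inhibin and activin beta subunits INHBA, INHBB and INHBE, and TGFB1, TGFB2 and TGFB3. They were taken by name, through their Ensembl identifiers, from the 39359 genes of a count table. Earlier results of these data were known when they were chosen. The table holds RNA-seq of H1299, a human lung carcinoma line without p53 protein, that was transiently transfected and sorted for GFP. Cells carried a vector for GFP only (pGFP), or one for GFP together with wild type p53 (p53 WT), p53 with the R248W mutation (p53 RW), or p53 from a sequence with 1 O6-methylguanine on the template strand of codon 248 (p53 O6-meG). In p53 TM, for transcriptional mutagenesis, the lesion vector was combined with 10 uM O6-bzG, which inactivates the repair protein AGT, given before transfection. Both genes of a vector were driven by TRE-tight promoters. O6-bzG alone, without the lesion, was not among the groups, so the drug and the unrepaired lesion cannot be told apart. Cells were collected at 6 h and at 24 h, with 3 libraries in each of the 10 groups. For 2 libraries, both replicate 2 at 6 h, the first part of the title names one of p53 O6-meG and p53 TM, whereas the rest of the title and the genotype field name the other. In the deposited counts, their columns are headed as the title begins. These libraries were placed in no group, and each of these groups therefore has n = 2 at 6 h.

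Ligands of this family are made as precursors, cut by proprotein convertases, and secreted as dimers. Most of them bind pairs of type I and type II serine/threonine kinase receptors, which phosphorylate SMAD transcription factors. TGF-betas and activins act mainly through SMAD2 and SMAD3, and BMPs through SMAD1, SMAD5 and SMAD9. GDF15 is a distant member that signals through GFRAL and the receptor tyrosine kinase RET in the brainstem, is released by stressed cells, and is a known target gene of p53. p53 binds DNA as a tetramer, at a pair of adjoining half-sites of 10 bases each.

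The promoters are shown first, because p53 acts on its target genes through sites in the DNA. RefSeq windows of 300 bases on GRCh38.p14, 250 before and 50 after a transcript start, were at hand for 7 of the 10 members (10 windows), whereas BMP7, BMP2 and INHBE had no entry. The exact p53 consensus half-site, searched on both strands, was found in 1 of these 10 windows, against 6.63% of all 35116 windows. It lay in a TGFB3 window, 52 bases before the start (chr14:75983054-75983063, minus strand), where GENCODE v44 places an intron of IFT43. Of 20-base sites made of a pair of abutting half-sites with intact cores and at most 3 mismatches elsewhere, an allowance chosen after the exact search, the member windows held 1. It was in GDF15 (chr19:18386186-18386205, plus strand, 3 mismatches, starting at base 29 of the transcript), and 0.427% of all windows held such a site. In GENCODE v44 this site lies in the first exon of the canonical GDF15 transcript, across the end of the 5' UTR and the start codon. Because annotated transcripts cover the GDF15 window, only 30 bases around that site are shown, beside the 250 bases before the start of TGFB3 and of INHBB, the latter as a member without a match. Capitals mark the 20-base site of GDF15 (chr19:18386178-18386207, plus strand) and the half-site of TGFB3 (chr14:75983012-75983261, minus strand), and INHBB (chr2:120345886-120346135, plus strand) has none. A match is a description of letters and not a measured binding site.
GDF15: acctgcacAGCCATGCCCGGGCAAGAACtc
TGFB3: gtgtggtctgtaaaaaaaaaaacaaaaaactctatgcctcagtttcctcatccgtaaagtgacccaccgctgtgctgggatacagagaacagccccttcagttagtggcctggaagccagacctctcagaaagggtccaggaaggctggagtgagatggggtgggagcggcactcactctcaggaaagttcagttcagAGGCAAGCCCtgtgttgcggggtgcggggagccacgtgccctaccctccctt
INHBB: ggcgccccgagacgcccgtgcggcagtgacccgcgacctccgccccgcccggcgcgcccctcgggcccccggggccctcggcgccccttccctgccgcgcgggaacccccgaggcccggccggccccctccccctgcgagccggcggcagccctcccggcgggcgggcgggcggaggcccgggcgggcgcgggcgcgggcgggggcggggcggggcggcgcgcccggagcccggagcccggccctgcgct

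Total counts on genes per library, in units of 1e6, were between 32.3 and 72 (median 44.4). CDKN1A, the p53 target that encodes the cell cycle inhibitor p21, was at 40.2 ± 5.2 CPM (counts per 1e6 counts on genes, after TMM normalization; SD, n = 3) in pGFP and 257 ± 11.2 in p53 WT at 6 h, and at 42.4 ± 4.55 in p53 RW. The line expressed KRT8 and KRT18 (group means of at least 120 and 324 CPM) together with VIM (at least 2446 CPM), whereas the epithelial markers EPCAM and CDH1 had group means of at most 0.273 and 0.0980 CPM. Of the markers of other cells, the leukocyte gene PTPRC had at most 2 counts in any group, and CDH5, of endothelium, at most 5. VWF, also an endothelial marker, was at 0.242 ± 0.0306 CPM (SD, n = 3) in pGFP and 0.780 ± 0.187 in p53 WT at 24 h, with 0.468 ± 0.00639 in p53 O6-meG and 0.170 ± 0.0284 in p53 TM, and PECAM1 was at 0.538 ± 0.231 in pGFP and 0.788 ± 0.277 in p53 WT. CD14, of monocytes, was at 1.35 ± 0.127 CPM in pGFP and 1.12 ± 0.623 in p53 WT at 24 h. The part of these markers in the results was not tested. In sorted bulk samples a smaller share of responding cells and less RNA per cell cannot be told apart.

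The members differed in level by over 3 orders of magnitude. Per kilobase of exon, TGFB1 was highest in pGFP at 24 h at 38.8 ± 5.06 CPM per kb (SD, n = 3), followed by TGFB3 at 1.69 ± 0.145, TGFB2 at 0.727 ± 0.0688, BMP4 at 0.529 ± 0.107, BMP2 at 0.397 ± 0.0483 and GDF15 at 0.370 ± 0.0231. BMP7, INHBB, INHBE and INHBA were each below 0.05 CPM per kb. With p53 WT at 24 h, GDF15 stood second at 18.3 ± 4.13 CPM per kb, and TGFB1 stayed first at 38.7 ± 5.18. Of the 10 members, 8 passed the filter on low counts. INHBA (at most 6 counts in a library) and INHBE (at most 3) did not and have no test. INHBB passed through the 3 libraries of p53 WT at 24 h alone and never exceeded 7 counts elsewhere, so a difference for that group was fixed by the filter.

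Against pGFP, a DEG had to change 2-fold or more with an adjusted p below 0.05, and between p53 vectors the p alone decided. Adjusted p values come from the quasi-likelihood test of edgeR, with the Benjamini-Hochberg method over 21335 genes, and errors of log2 fold changes are standard errors. At 6 h, p53 WT had 1 DEG among the members (GDF15, 4.49% of all genes tested were called), p53 O6-meG had 1 (GDF15, 2.13% of all genes) and p53 TM had 1 (GDF15, 0.0656% of all genes). At 24 h, p53 WT had 4 (GDF15, BMP7, BMP2 and INHBB, all up, with 11.2% of all genes called, 3 of the other 7 tested members being called, since INHBB was tested only because it was high in these libraries), p53 O6-meG had 3 (GDF15, BMP7 and BMP2, with 9.16%) and p53 TM had 2 (GDF15 and BMP7, with 3.15%). The median log2 fold change over the 8 tested members at 24 h was 1.18 with p53 WT, 0.70 with p53 O6-meG and 0.04 with p53 TM, and over all genes it was 0.008, 0.011 and 0.019. These comparisons share the pGFP libraries. The medians over members include INHBB, which was tested only because it was high with p53 WT at 24 h.

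p53 RW called 0 members at 6 h by edgeR (1 at an unadjusted p under 0.05, and 0 by DESeq2), with 0.00469% of all genes called, and 0 at 24 h (0 at an unadjusted p under 0.05, and 0 by DESeq2), again with 0.00469%. Between p53 vectors, p53 TM was below p53 WT for 1 member at 6 h (GDF15, 10.9% of all genes called) and for 4 at 24 h (BMP7, BMP2, INHBB and TGFB2, with 21.2%). INHBB was tested only because it was high in p53 WT at 24 h, so its part in that count was fixed by the filter. p53 TM was below p53 O6-meG for 1 member at 6 h (GDF15, 4.1% of all genes called) and for 2 at 24 h (BMP7 and BMP2, with 10%). p53 O6-meG against p53 WT called 0 members at 6 h (0% of all genes, 0 members at an unadjusted p under 0.05, and 0 by DESeq2) and 0 at 24 h (0.00937% of all genes, 3 members at an unadjusted p under 0.05, and 0 by DESeq2). At 24 h replicate numbers pair the libraries, and with the number as a block in edgeR 2 members were called there (BMP2 and INHBB). The call of INHBB is again one that the filter fixed. With the block, p53 TM against p53 WT at 24 h called 5 members (4 by DESeq2), adding GDF15. The block also gave 5 for p53 TM against p53 O6-meG at 24 h (3 by DESeq2), with GDF15 and TGFB2 lower and TGFB3 higher in p53 TM. Numbers over all genes with the block are given under the dependence on processing.

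**Figure D1:**
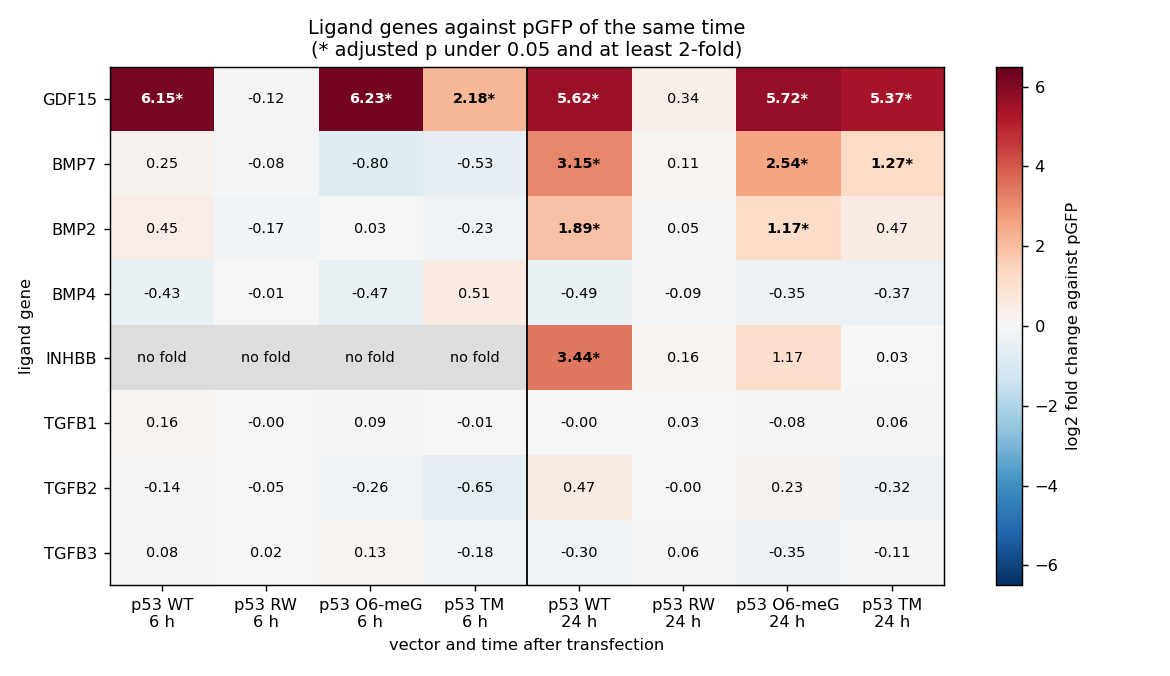
Log2 fold change of the 8 tested members (rows) against pGFP of the same time, for each p53 vector at 6 h and 24 h (columns), from red for higher to blue for lower. Stars mark DEGs, and grey cells have no fold because INHBB had 0 counts in every pGFP library at 6 h; only GDF15 is starred at 6 h, and at 24 h the stars thin out from 4 with p53 WT to 2 with p53 TM.

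GDF15 (ENSG00000130513, chr19:18374731-18389176, plus strand, hg38), a stress-induced cytokine, rose more than any other tested member with p53 WT at 24 h and was the one member called at 6 h. At 6 h its level was 0.285, 0.242 and 0.193 CPM in pGFP and 18.2, 15.6 and 17.5 CPM in p53 WT, in replicates 1 to 3. Every p53 WT library lay far above every pGFP library, and the log2 fold change was 6.15 ± 0.23 (71.0-fold, adjusted p = 7.8e-16 by edgeR). p53 RW libraries had 0.214, 0.226 and 0.218 CPM, inside the range of pGFP. The 2 libraries of p53 O6-meG had 17.95 and 18.1 CPM, inside the range of p53 WT, and their difference from p53 WT was 0.08 ± 0.16 (95% interval −0.24 to 0.40).

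In p53 TM at 6 h, GDF15 was at 0.977 and 1.19 CPM in its 2 libraries, above all pGFP libraries and below all of p53 WT. The log2 fold change was 2.18 ± 0.31 against pGFP (4.54-fold, adjusted p = 0.00054), −3.97 ± 0.22 against p53 WT (adjusted p = 6e-12) and −4.05 ± 0.22 against p53 O6-meG (adjusted p = 1.1e-11, all by edgeR). As a share of the mean rise with p53 WT over pGFP, p53 TM had 5.01% ± 0.882 (SD, n = 2) and p53 O6-meG 106% ± 0.723 (SD, n = 2). Of the 2 libraries with conflicting labels, the one whose title first names p53 TM had 0.892 CPM and the one whose title first names p53 O6-meG had 16.5 CPM. CDKN1A was at 50.4 and 251 CPM in the same libraries, against 66.2 and 58.2 in p53 TM and 270 and 262 in p53 O6-meG. No group was assigned from these values. Placed by the first part of the title, the libraries left the 3 log2 fold changes of p53 TM at 2.10, −4.05 and −4.09, all called. Placed by the genotype field, they ended all 3 calls: against pGFP the value was 4.67 (adjusted p = 0.069), against p53 WT −1.47 (adjusted p = 0.27) and against p53 O6-meG −1.0 (adjusted p = 1, by edgeR).

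At 24 h GDF15 was at 0.828, 0.752 and 0.739 CPM in pGFP, at 33.9, 48.0 and 32.4 in p53 WT, at 39.3, 47.8 and 35.1 in p53 O6-meG and at 37.1, 34.7 and 24.3 in p53 TM. The 3 last groups overlapped each other and lay clear of pGFP and of p53 RW (0.980, 1.13 and 0.817 CPM). Against pGFP the log2 fold change was 5.62 ± 0.20 with p53 WT, 5.72 ± 0.20 with p53 O6-meG and 5.37 ± 0.20 with p53 TM (adjusted p of 2.4e-16, 1.7e-16 and 6.6e-16 by edgeR). p53 TM differed from p53 WT by −0.25 ± 0.14 (95% interval −0.53 to 0.03, adjusted p = 0.23), and with the replicate block by −0.25 ± 0.08 (adjusted p = 0.018). Against p53 O6-meG the difference of p53 TM was −0.35 ± 0.14 (adjusted p = 0.13), and with the block −0.35 ± 0.08 (adjusted p = 0.0024, both by edgeR). Without p53 TM replicate 1 the unblocked difference was −0.47 (adjusted p = 0.046).

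The share of the p53 WT rise of GDF15 held by p53 TM was thus 5.01% at 6 h and 83.9% ± 18.3 (SD, n = 3) at 24 h, the 3 libraries of 24 h being at 97.5%, 91.1% and 63.0%. The change of the difference between p53 TM and p53 WT from 6 h to 24 h, a contrast added after values had been seen, was 3.72 ± 0.26 for GDF15 (adjusted p = 1.4e-09 by edgeR). GDF15 was the 1 member called in it, beside 1.45% of all genes. With both conflicting libraries placed by the genotype field this value fell to 1.22 (adjusted p = 0.76). The response to p53 WT itself differed by −0.53 ± 0.35 between the times (adjusted p = 0.47). In pGFP cells, GDF15 was 1.69 ± 0.31 higher at 24 h than at 6 h (adjusted p = 0.00012, and 0.3 with both libraries placed by the genotype field).

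**Figure D2:**
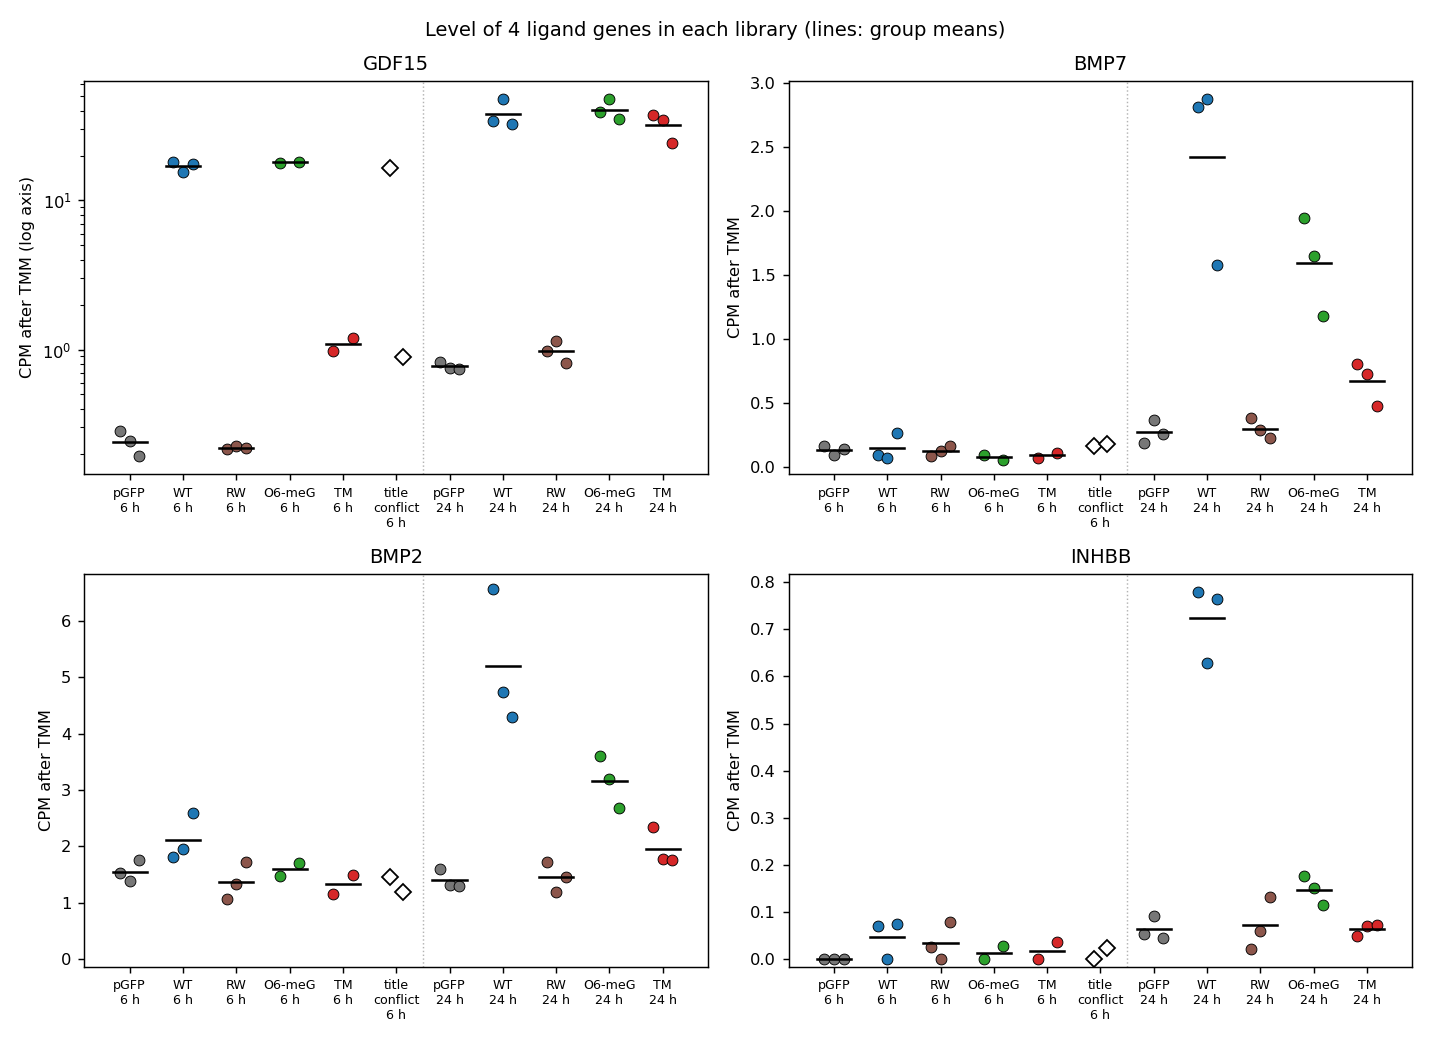
Level of GDF15 (log axis), BMP7, BMP2 and INHBB (linear axes) in CPM after TMM, each point 1 library, by vector and time, with lines at group means. Open diamonds are the 2 libraries of 6 h with conflicting titles, on the left the one whose title first names p53 O6-meG. GDF15 is high with p53 WT at both times. With p53 WT at 24 h, every library of BMP7, BMP2 and INHBB lies above those of pGFP. For BMP2 this also holds at 6 h, by a smaller margin.

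BMP7 (ENSG00000101144, chr20:57168753-57266641, minus strand), a bone morphogenetic protein of kidney and skeletal development, rose at 24 h. At 6 h its 3 pGFP libraries had 8, 4 and 8 counts and its 3 p53 WT libraries 4, 3 and 18 counts, and the groups overlapped (log2 fold change 0.25 ± 0.49, 95% interval −0.7 to 1.2). At 24 h it was at 0.187, 0.365 and 0.254 CPM in pGFP and 2.81, 2.88 and 1.58 CPM in p53 WT, with no overlap (3.15 ± 0.34, 8.85-fold, adjusted p = 5.6e-08 by edgeR). The response differed between the times by 2.89 ± 0.62 (adjusted p = 0.0056), and 2 members were called in that contrast (BMP7 and BMP2), beside 6.51% of all genes.

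Levels of BMP7 at 24 h descended from p53 WT through p53 O6-meG, at 1.94, 1.65 and 1.18 CPM, to p53 TM, at 0.806, 0.721 and 0.475 CPM. All p53 TM libraries lay above those of pGFP and of p53 RW (0.379, 0.284 and 0.221 CPM) and below those of p53 O6-meG, whereas the libraries of p53 O6-meG and p53 WT overlapped. p53 O6-meG was 2.54 ± 0.35 above pGFP (adjusted p = 2.8e-06) and −0.60 ± 0.28 from p53 WT, which did not pass (adjusted p = 0.99, and 0.1 with the replicate block). p53 TM was 1.27 ± 0.37 above pGFP (adjusted p = 0.026), −1.87 ± 0.30 from p53 WT (adjusted p = 9.5e-05) and −1.27 ± 0.31 from p53 O6-meG (adjusted p = 0.0093, all by edgeR). The rise over pGFP in p53 TM lost its call without pGFP replicate 1 (1.08, adjusted p = 0.12) or 3 (1.23, adjusted p = 0.092), without p53 TM replicate 1 (1.12, adjusted p = 0.12) or 2 (1.2, adjusted p = 0.076), and in an edgeR fit of those groups alone (1.23, adjusted p = 0.078). The difference from p53 O6-meG lost its call without p53 TM replicate 3 (−1.06, adjusted p = 0.075) and in a fit of those groups alone (adjusted p = 0.079).

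BMP2 (ENSG00000125845, chr20:6767686-6780246, plus strand), an inducer of bone and cartilage formation, followed the same order. At 6 h it was at 1.53, 1.39 and 1.75 CPM in pGFP and at 1.82, 1.95 and 2.60 in p53 WT, a difference of 0.45 ± 0.20 that did not pass (adjusted p = 0.21 by edgeR) although no library overlapped. At 24 h it was at 1.60, 1.32 and 1.29 CPM in pGFP and 6.56, 4.74 and 4.30 in p53 WT, which rose 3.70-fold (1.89 ± 0.21, adjusted p = 5.6e-08). The response was 1.43 ± 0.29 larger at 24 h than at 6 h (adjusted p = 0.0033). In p53 TM at 6 h BMP2 was at 1.16 to 1.49 CPM (n = 2), below all p53 WT libraries. The difference from p53 WT was −0.68 ± 0.24 (adjusted p = 0.065), and with the block −0.73 ± 0.15 (adjusted p = 0.00058, both by edgeR). With the conflicting libraries placed by the first part of the title it was −0.73 (adjusted p = 0.013). By the genotype field it was −0.64 (adjusted p = 0.12, both by edgeR).

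In p53 O6-meG at 24 h BMP2 was at 3.59, 3.20 and 2.68 CPM, between pGFP and p53 WT without overlap with either. It was 1.17 ± 0.21 above pGFP (adjusted p = 9e-05) and −0.72 ± 0.19 from p53 WT, which did not pass without the block (adjusted p = 0.54) and did with it (−0.70 ± 0.11, adjusted p = 0.0021 by edgeR). In p53 TM it was at 2.34, 1.77 and 1.75 CPM, all above pGFP, with a difference from pGFP of 0.47 ± 0.21 that did not reach 2-fold (adjusted p = 0.19, and 0.012 with the block). p53 TM was −1.41 ± 0.20 from p53 WT (adjusted p = 2e-05) and −0.70 ± 0.20 from p53 O6-meG (adjusted p = 0.028 by edgeR). The latter call was lost without p53 O6-meG replicate 1 (−0.60, adjusted p = 0.11) or 2 (−0.69, adjusted p = 0.077), without p53 TM replicate 2 (−0.63, adjusted p = 0.11) or 3 (−0.62, adjusted p = 0.12), and in a fit of those groups alone (−0.69, adjusted p = 0.13), and held with the block (adjusted p = 0.00011).

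BMP4 (ENSG00000125378, chr14:53949736-53958761, minus strand), which patterns the mesoderm of the embryo, was called in no comparison of p53 vectors in the fit of all groups without the replicate block. At 6 h it was at 0.886 and 1.24 CPM in p53 TM, above all libraries of p53 WT (0.519, 0.458 and 0.667) and of p53 O6-meG (0.657 and 0.414). p53 TM against p53 WT gave 0.94 ± 0.38 (adjusted p = 0.13 by edgeR), which passed in a fit of those groups alone (0.96, adjusted p = 0.032). With the block it passed too (0.76 ± 0.26, adjusted p = 0.035 by edgeR). p53 TM against p53 O6-meG gave 0.98 ± 0.44 (adjusted p = 0.28), and with the block 0.96 ± 0.29 (adjusted p = 0.032, both by edgeR). Neither difference was called with the conflicting libraries placed. By the first part of the title they were 0.82 against p53 WT (adjusted p = 0.13) and 0.6 against p53 O6-meG (adjusted p = 0.37, both by edgeR). By the genotype field they were 0.84 (adjusted p = 0.22 by edgeR) and 0.67. The mean of BMP4 was 1.64 ± 0.330 CPM in pGFP, 1.17 ± 0.537 in p53 WT and 1.27 ± 0.206 in p53 TM at 24 h (SD, n = 3), with overlapping libraries, and p53 WT against pGFP gave −0.49 ± 0.32 (95% interval −1.12 to 0.14). In pGFP it was higher at 24 h than at 6 h, at 2.00, 1.55 and 1.36 CPM against 0.795, 0.374 and 1.05 (1.12 ± 0.33, adjusted p = 0.0082 by edgeR). That call was lost without the pGFP replicate 1 of 24 h (0.95, under 2-fold, adjusted p = 0.045) or the pGFP replicate 2 of 6 h (0.82, adjusted p = 0.059). Between the times in pGFP, 3 members were called (GDF15, BMP4 and INHBB), beside 9.96% of all genes. Markers of other cells were also higher in pGFP at 24 h than at 6 h, with CD14 at 1.35 ± 0.127 against 0.250 ± 0.0773 CPM, PECAM1 at 0.538 ± 0.231 against 0.0948 ± 0.0637 and VWF at 0.242 ± 0.0306 against 0.0853 ± 0.0386 (SD, n = 3), whereas PTPRC and CDH5 had at most 3 counts in either group, and their part in the result was not tested.

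INHBB (ENSG00000163083, chr2:120346136-120351803, plus strand) encodes the subunit of activin B and inhibin B. The filter passed INHBB through p53 WT at 24 h alone. Its differences from that group were thus fixed by the filter, and their p values are a description only. At 24 h it had 31, 29 and 32 counts in p53 WT and 2, 4 and 2 in pGFP, or 0.723 ± 0.0833 against 0.0636 ± 0.0241 CPM (SD, n = 3). The ratio over the summed counts was 11.2 (95% interval 5.46 to 26.7, exact and for counting error only), and the log2 fold change was 3.44 ± 0.55 (adjusted p = 2.4e-05 by edgeR). The other vectors stood lower: p53 O6-meG had 6, 7 and 4 counts, p53 TM 2, 3 and 4, and p53 RW 1, 3 and 6. p53 TM was −3.41 ± 0.54 from p53 WT (adjusted p = 9.5e-05) and 0.03 ± 0.76 from pGFP (95% interval −1.47 to 1.52). p53 O6-meG was −2.27 ± 0.49 from p53 WT, with an unadjusted p of 0.00011 in edgeR, an adjusted p of 0.27, and an adjusted p of 0.003 with the block (−2.26 ± 0.36). Against pGFP p53 O6-meG gave 1.17 ± 0.68, which did not pass (adjusted p = 0.22). At 6 h no library had more than 5 INHBB counts, with 0, 0 and 0 in pGFP and 3, 0 and 5 in p53 WT, and no fold is given there. The call of INHBB between the times in pGFP rests on 0, 0 and 0 counts at 6 h against 2, 4 and 2 at 24 h (adjusted p = 0.01 by edgeR).

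INHBA (ENSG00000122641, chr7:41667168-41705834, minus strand), the subunit of activin A, had 8 counts summed over pGFP and 2 over p53 WT at 24 h, a ratio of 0.244 whose 95% counting interval of 0.0252 to 1.22 includes no change. INHBE (ENSG00000139269, chr12:57452323-57459280, plus strand), a subunit made mainly by liver, had 4 and 1 counts in the same groups, a ratio of 0.244 with an interval of 0.00495 to 2.46. A difference was not detectable at this depth for either.

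Shares of the p53 WT rise at 24 h, a description of the 4 members that rose, were higher in p53 O6-meG than in p53 TM by their means. INHBB is among these members although it was tested only because of that rise. p53 O6-meG held 107% ± 17.3 for GDF15, 61.5% ± 17.9 for BMP7, 46.2% ± 12.1 for BMP2 and 12.7% ± 4.68 for INHBB (SD, n = 3). p53 TM held 83.9% ± 18.3 for GDF15, 18.5% ± 7.99 for BMP7, 14.5% ± 8.85 for BMP2 and 0.127% ± 1.86 for INHBB (SD, n = 3). For GDF15 the libraries of both groups overlapped those of p53 WT, and for INHBB no library of either group exceeded 17.2%. Differences between members in these shares were not tested.

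**Figure D3:**
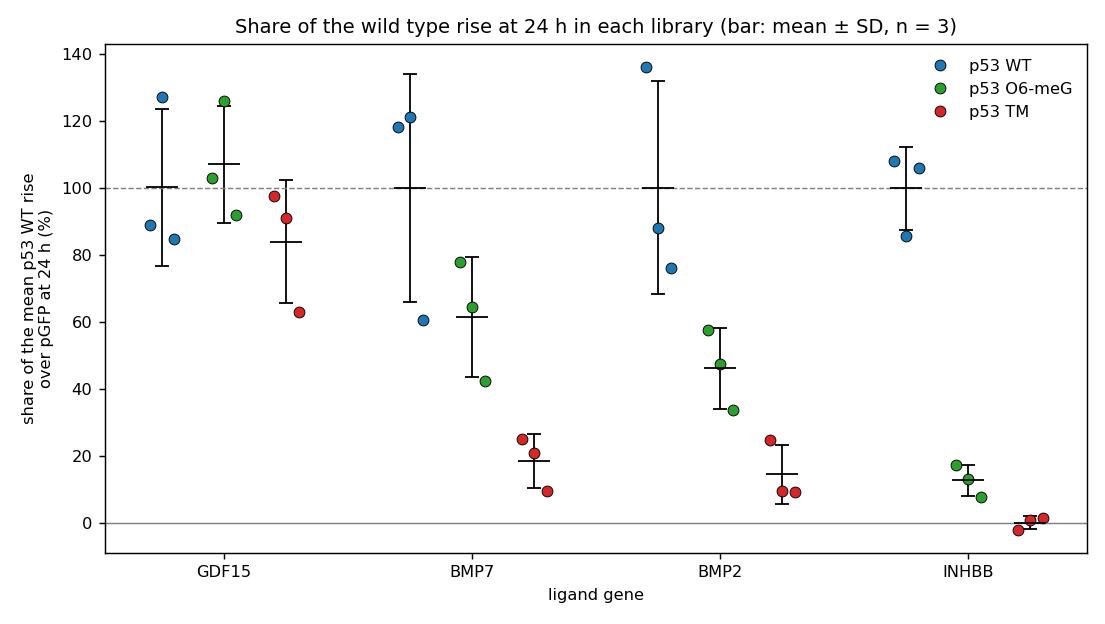
Share of the mean rise with p53 WT over pGFP at 24 h (y axis, percent) that each library of p53 WT, p53 O6-meG and p53 TM held, for the 4 members that rose, with means and SD (n = 3). The p53 TM points lie near those of p53 WT for GDF15 (63.0% to 97.5%) and near 0 for INHBB (−2% to 1.44%).

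TGFB1 (ENSG00000105329, chr19:41301587-41353922, minus strand), a cytokine that restrains epithelial growth, was the most expressed member and was called in no comparison. Its group means lay between 107 and 132 CPM, and p53 WT against pGFP gave 0.16 ± 0.13 at 6 h and 0.00 ± 0.13 at 24 h (95% interval −0.25 to 0.24 at 24 h). Its exons overlap those of HNRNPUL1 on the other strand, a gene with up to 62778 counts in a library, and no source used here tells whether reads were counted by strand, so the share of its reads that belong to that gene is not known.

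TGFB2 (ENSG00000092969, chr1:218345336-218444619, plus strand), a ligand that needs the co-receptor betaglycan for high-affinity binding, differed between p53 vectors at 24 h. It was at 4.09, 4.24 and 4.87 CPM in pGFP, at 6.66, 4.93 and 6.70 in p53 WT and at 3.68, 3.51 and 3.40 in p53 TM. All p53 WT libraries lay above, and all p53 TM libraries below, those of pGFP. p53 WT was 0.47 ± 0.19 from pGFP (adjusted p = 0.052, and 0.0044 with the block, under 2-fold), p53 TM −0.32 ± 0.19 from pGFP (adjusted p = 0.37), and p53 TM −0.79 ± 0.19 from p53 WT (adjusted p = 0.0036 by edgeR). p53 O6-meG had 4.10, 4.36 and 7.05 CPM, and p53 TM was −0.55 ± 0.19 from it (adjusted p = 0.067, and 0.005 with the block, by edgeR, and 0.028 by DESeq2). Without p53 O6-meG replicate 1 this difference was −0.69 (adjusted p = 0.038), and without its replicate 3, the highest library, −0.26 (adjusted p = 0.45). At 6 h the p53 TM libraries were also below all of pGFP, at 3.32 and 3.62 CPM against 4.28, 6.48 and 5.54, a difference of −0.65 ± 0.21 that did not pass (adjusted p = 0.48).

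TGFB3 (ENSG00000119699, chr14:75958097-75983011, minus strand), which acts in palate fusion, changed by less than 2-fold in every comparison. At 24 h it was at 9.13, 7.97 and 9.40 CPM in pGFP, at 7.54, 6.95 and 7.01 in p53 WT and at 7.57, 6.5 and 6.77 in p53 O6-meG, with both p53 groups below pGFP in every library. The differences from pGFP were −0.30 ± 0.13 with p53 WT (adjusted p = 0.074, and 0.0056 with the block) and −0.35 ± 0.13 with p53 O6-meG (adjusted p = 0.046 by edgeR). p53 TM was 0.24 ± 0.13 from p53 O6-meG (adjusted p = 0.28), which passed with the block by a narrow margin (adjusted p = 0.05 after rounding).

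Over the 28 libraries of known group, the genes most like GDF15 in log2 CPM included FDXR (Pearson r = 0.985), PLK3 (0.984), BBC3 (0.982) and ZNF79 (0.982). The genes most like BMP7 were COG7 (0.972), BCAS4 (0.971), KCNQ1 (0.968), FLJ36000 (0.966) and CERS4 (0.960). These values are a description, since all points share vectors, times and libraries. FDXR, a mitochondrial electron carrier, had a log2 fold change of 3.92 at 6 h and 3.93 at 24 h with p53 WT. Of the genes most like BMP7, COG7 had 0.05 at 6 h and 0.47 at 24 h with p53 WT, and BCAS4 had 0.07 and 1.07. KCNQ1, a potassium channel, had −0.02 and 3.71, FLJ36000 had 1.13 and 3.59, and CERS4 had 0.19 and 1.41.

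Among 23 other ligands of the family, 12 were tested, and p53 WT raised 2 at 6 h and 3 at 24 h, with none lower, beside 4.49% and 11.2% of all genes called in either direction at these times. They were GDF9, an oocyte growth factor (1.64 ± 0.24 at 6 h, adjusted p = 2e-05, and 3.14 ± 0.24 at 24 h, adjusted p = 1.7e-10), BMP8A (1.34 ± 0.34 and 2.31 ± 0.28) and, at 24 h, GDF6 (1.34 ± 0.19, adjusted p = 2.4e-06 by edgeR). BMP8A has a near-identical neighbour, BMP8B, so reads may be split between them. p53 TM at 24 h raised GDF9 by 1.09 ± 0.24 and BMP8A by 1.00 ± 0.29, 2 of the 12, beside 3.15% of all genes called. BMP8A lay at the 2-fold limit, and DESeq2 called 1 of the 12.

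Among 16 receptors and co-receptors 13 were tested, and p53 WT raised 2 at both times, beside 4.49% and 11.2% of all genes called in either direction at 6 h and 24 h. RET, which transmits the GDF15 signal, had 1 to 2 counts a library in pGFP at 24 h against 95 to 149 in p53 WT (6.14 ± 0.38, adjusted p = 5.2e-12 by edgeR) and 10 to 12 in p53 TM (2.51 ± 0.50, adjusted p = 0.001). GFRAL, its partner in the GDF15 receptor, did not pass the filter. TGFBR1, the type I receptor of TGF-beta, rose by 1.28 ± 0.18 at 6 h and 1.46 ± 0.18 at 24 h (adjusted p = 1.1e-05 and 4.7e-07 by edgeR), and in p53 TM at 24 h was at 0.86 ± 0.18, below the 2-fold limit.

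All 8 SMAD genes were tested, and p53 WT raised 1 at both times, beside 4.49% and 11.2% of all genes called at 6 h and 24 h. The gene was SMAD7, an inhibitor of receptor signalling. It rose by 2.38 ± 0.19 at 6 h and 2.11 ± 0.19 at 24 h with p53 WT (adjusted p = 1.4e-09 and 2.1e-09 by edgeR). With p53 TM at 24 h SMAD7 rose by 1.16 ± 0.19 (adjusted p = 8.7e-05 by edgeR), where 3.15% of all genes were called. Of 12 tested genes for antagonists and latency proteins, p53 WT raised 1 at 6 h, and raised 3 and lowered 1 at 24 h, beside 4.49% and 11.2% of all genes called in either direction. BAMBI, a decoy receptor, rose by 1.52 ± 0.33 at 6 h and 1.85 ± 0.29 at 24 h, and LTBP2, of the latent TGF-beta binding protein family, by 1.41 ± 0.10 at 24 h (adjusted p = 3.2e-11). The third to rise was LTBP3 of the same family (1.11, named for completeness after its value was seen), whereas FST, which encodes the activin antagonist follistatin, was lower at 24 h (−1.34 ± 0.30, adjusted p = 0.00089 by edgeR). p53 TM at 24 h raised 0 of the 12 and lowered 1, beside 3.15% of all genes called in either direction. The gene was BMPER (−1.2 ± 0.35, adjusted p = 0.024 by edgeR), named after its value was seen.

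Of 10 genes that respond to SMAD signalling, all tested, p53 WT raised 1 at 6 h (0 called by DESeq2) and 3 at 24 h, with none lower, beside 4.49% and 11.2% of all genes called in either direction. PMEPA1, a feedback inhibitor, rose by 1.03 ± 0.20 at 6 h (adjusted p = 0.00086) and 2.28 ± 0.21 at 24 h (adjusted p = 2.9e-09), ID2 by 1.87 ± 0.13 and SKI by 1.06 ± 0.13 at 24 h (adjusted p = 2.7e-11 and 2.1e-07 by edgeR). Of the same 10, p53 TM at 24 h called 0 as DEGs (3 at an unadjusted p under 0.05 in edgeR, and 0 DEGs by DESeq2), beside 3.15% of all genes. There PMEPA1 was at 0.91 ± 0.21, ID2 at 0.61 ± 0.13 and SKI at 0.69 ± 0.13. Of 4 convertases, 1 rose with p53 WT, PCSK5, by 1.24 ± 0.39 at 6 h (adjusted p = 0.04) and 3.30 ± 0.34 at 24 h (adjusted p = 1.9e-08), and with p53 TM by 1.30 ± 0.34 at 24 h (adjusted p = 0.012 by edgeR). The shares of all genes called were 4.49% and 11.2% with p53 WT at 6 h and 24 h, and 3.15% with p53 TM at 24 h. p53 RW called 0 genes of these 6 lists at 6 h (0 at an unadjusted p under 0.05 in edgeR, and 0 by DESeq2) and 0 at 24 h (0 and 0 by the same measures), beside 0.00469% of all genes at each time. At 24 h p53 TM was below p53 WT for 4 of 12 other ligands, 6 of 13 receptors, 3 of 8 SMAD genes, 5 of 12 antagonists and latency genes, 4 of 10 responsive genes and 1 of 4 convertases, and above it for 1, 1, 0, 0, 0 and 1 of them, beside 21.2% of all genes called in either direction. All values and counts of these 6 lists come from the fit without the replicate block, although replicate numbers pair the libraries at 24 h. Blocked values were examined for the members only.

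**Figure D4:**
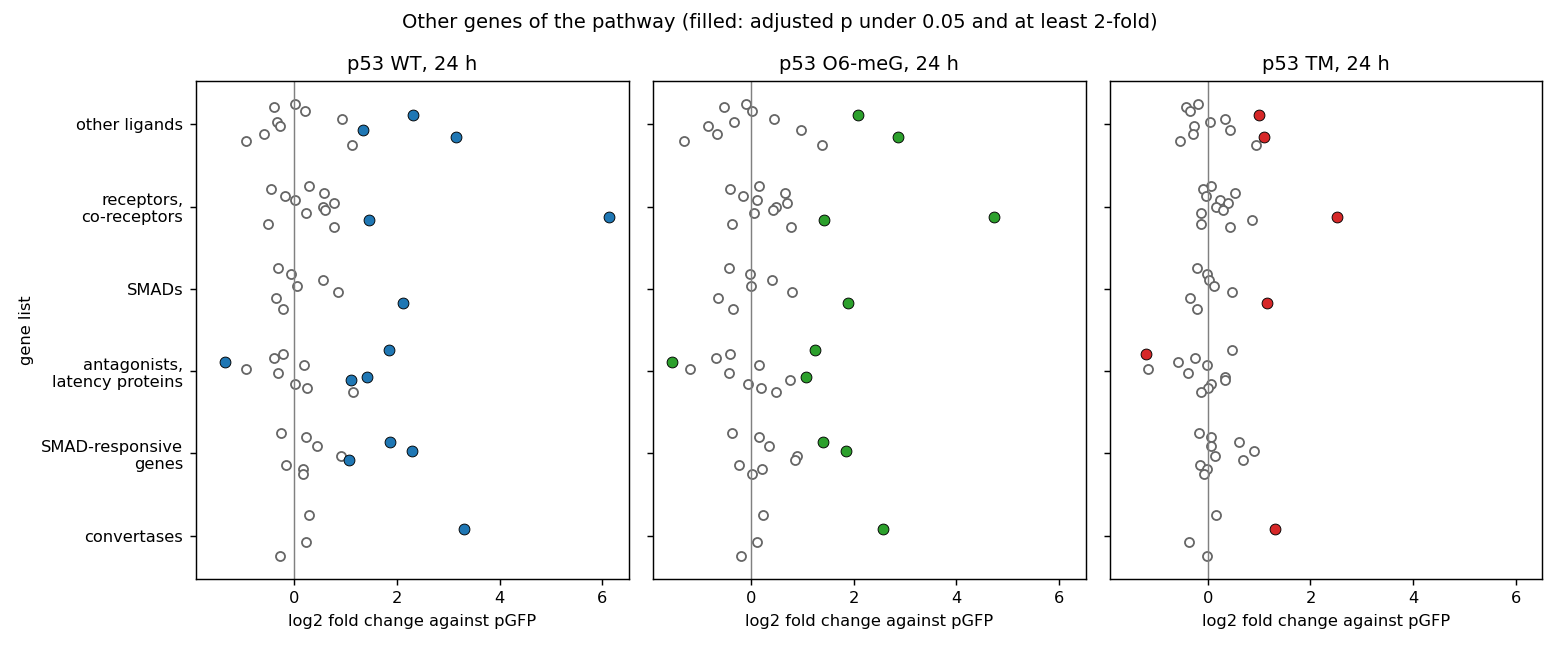
Log2 fold change against pGFP at 24 h (x axis) for the tested genes of 6 lists of the pathway (y axis), with p53 WT, p53 O6-meG and p53 TM, each point 1 gene. Filled points are DEGs; RET, far to the right among receptors, is at 6.14 with p53 WT and 2.51 with p53 TM.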

How the data were processed

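RNA of GFP-sorted H1299 cells was sequenced as single reads from ribosome-depleted, stranded total RNA libraries. The counts analysed here were deposited by the authors as raw whole-number read counts per gene, made by alignment to hg38 with STAR 2.5.3a and counting on GENCODE v27 with featureCounts of Subread 1.5.2; their strand setting is not given in the sources used here. A deposited table of normalized values was not used here. Of 39359 genes, 38904 were matched to GENCODE v44 for coordinates and exon lengths.

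Counts of the 28 libraries of known group (10 groups) were fitted together in R 4.3.3 with edgeR 4.0.16: filterByExpr with the groups (21335 genes kept), TMM, and the quasi-likelihood test with Benjamini-Hochberg adjustment within each of 17 comparisons, 1 of them added after values had been seen. Standard errors come from the estimate and its F statistic. DESeq2 1.42.0 and other settings were alternatives. The members, the lists and the handling of the 2 conflicting libraries were chosen with earlier results of these data known. All members are named, CDKN1A checks the labels, 1 gene is not reported here, and of each list at most the 3 called genes of largest change with p53 WT at each time, with no overlap of libraries, are named. Ratios of summed counts have exact 95% binomial intervals, which cover counting error only. The replicates were biological triplicates by the study's methods.

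At 24 h all 30 pairs of libraries with the same replicate number in different groups had residual correlations above 0.1 (0.411 to 0.866). Blocked values therefore stand beside the results of members within 24 h whose call they change. Results of the pathway lists are unblocked. At 6 h 19 of 23 pairs had correlations above 0.1 (range −0.18 to 0.617), with a median of 0.263 against −0.155 for pairs of different numbers. Pairing at 6 h is therefore seen in most pairs but not in all. Results of 6 h are given unblocked, with blocked values beside them for BMP2 and BMP4 in p53 TM only. The calls that the block adds at 6 h are listed under the dependence on processing. No library duplicated another of its group (chi-square per degree of freedom 8.16 to 69.7 over 26 pairs). The scripts were tested on simulated data.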

Additional observations from a re-analysis of the deposited data

Results flagged for a closer look

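The response of 2 members to p53 WT differed between 6 h and 24 h by a test of the difference itself, with 2.89 on the log2 scale for BMP7 and 1.43 for BMP2, both larger at 24 h. The difference between p53 TM and p53 WT changed for GDF15 by 3.72 from 6 h to 24 h, in a contrast added after values had been seen.

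Both libraries with conflicting labels were outside all comparisons. GDF15 was at 0.892 CPM in the library whose title first names p53 TM and at 16.5 CPM in the one whose title first names p53 O6-meG, both above the highest pGFP library at 6 h (0.285 CPM). BMP7 was at 0.173 and 0.164 CPM in the same libraries, from 7 counts each, against 0.163 CPM in the highest pGFP library at 6 h.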

How the results depend on the processing

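With both conflicting libraries placed by the genotype field, the number of members called fell to 0 for p53 TM at 6 h against pGFP, p53 WT and p53 O6-meG and for the added contrast; placed by the first part of the title, 2 were called with p53 WT at 6 h and 2 for p53 TM against p53 WT at 6 h. A minimum of 10 counts in every library removes GDF15, BMP7 and INHBB from the test: 0 members were then called in the 5 comparisons of 6 h that had called 1, 0 for p53 TM against pGFP at 24 h and in the added contrast, 1 for p53 WT and for p53 O6-meG against pGFP at 24 h, 2 for p53 TM against p53 WT and 1 against p53 O6-meG at 24 h, 1 between the times in pGFP and 1 for the change of the p53 WT response. In fits of only the groups compared, 2 were called for p53 TM against p53 WT at 6 h, 1 for p53 TM against pGFP at 24 h and 0 for p53 TM against p53 O6-meG at 24 h. With the replicate block, 2 were called with p53 WT at 6 h, 4 for p53 TM against p53 WT and 2 against p53 O6-meG at 6 h, 2 for p53 O6-meG against p53 WT and 5 for p53 TM against p53 O6-meG at 24 h, 4 for the change of the p53 WT response and 3 in the added contrast; it ended no call. Calls gained with the block that involve 6 h were BMP2, BMP4 and TGFB3 for p53 TM against p53 WT, BMP4 for p53 TM against p53 O6-meG, INHBB for p53 WT, BMP7 between the times in pGFP (1.1), TGFB2 (0.61) and TGFB3 (−0.38) for the change of the p53 WT response, and BMP2 (−0.67) and TGFB3 (0.5) in the added contrast. Leaving out 1 library at a time gave 1 to 2 for p53 WT against pGFP at 6 h, 1 to 2 for p53 TM against pGFP at 24 h, 0 to 3 for p53 TM against p53 O6-meG at 24 h and 2 to 4 between the times in pGFP (4 without p53 WT 6 h replicate 3, when BMP7 passed). No called value reversed its direction in any of these settings. DESeq2, DESeq2's size factors in edgeR and testing every gene with at least 1 count left each number of members called within 1.5 times.

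Over all genes, placement by the genotype field took the count from 455 to 53 for p53 O6-meG against pGFP at 6 h, from 2329 to 16 for p53 TM against p53 WT at 6 h, from 874 to 0 and from 2144 to 1356 for p53 TM against p53 O6-meG at 6 h and 24 h, and from 310 to 14 in the added contrast, and placement by title gave 1732 for p53 TM against p53 O6-meG at 6 h and 513 in the added contrast. The minimum of 10 counts took p53 WT against pGFP from 957 to 444 and from 2392 to 1210 at 6 h and 24 h, p53 O6-meG from 455 to 239 and from 1955 to 988, p53 TM at 24 h from 671 to 344 and time in pGFP from 2125 to 918. Fits of only the groups compared gave 418 for p53 TM against pGFP, 1768 (from 4520) against p53 WT and 241 against p53 O6-meG at 24 h, and 160 in the added contrast. The block gave 766 for p53 O6-meG and 29 (from 14) for p53 TM against pGFP at 6 h, 4499 and 7888 for p53 TM against p53 WT, 2595 and 5391 for p53 TM against p53 O6-meG, 3897 (from 1388) for the change of the p53 WT response and 1676 in the added contrast. p53 O6-meG against p53 WT, with 0 and 2 genes at 6 h and 24 h, had 35 and 8 by DESeq2, 24 and 0 with every gene of at least 1 count, 8 and 0 in fits of those groups, 1370 and 114 with the block, and at 24 h 1 with the minimum of 10 counts and 0 by the genotype field. The causes were not tested. INHBA, INHBE and, outside p53 WT at 24 h, INHBB are limited by depth.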
